A study of Mus musculus with 11 samples.

Results

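Ribosomal RNAs and abundant nuclear or housekeeping noncoding RNAs were examined as 8 named genes of the 54232 in the count table: Gm42418, mt-Rnr1, mt-Rnr2, Malat1, Neat1, Rn7sk, Rmrp and Rpph1. Their rows were found by Ensembl identifier through the symbols of GENCODE M21. Gm42418, mt-Rnr1 and mt-Rnr2 were chosen by the spread of their counts between these tumours, so their levels are given as a description, without a test. The counts came from bulk RNA sequencing of 11 orthotopic pancreatic tumours, that is, tumours grown in the pancreas itself. Hosts were female C57BL/6 mice, 24 to 28 weeks old when the experiment began, and every host carried 1 Rosa26-CreERT2 allele and received the same tamoxifen course. The 6 KO hosts were homozygous for a floxed Pkn2 gene, which encodes protein kinase N2, and the 5 WT hosts had both Pkn2 alleles intact. Each pancreas was injected with 1000 TB32048 cells, a carcinoma line from a female KPC mouse (a genetic model of pancreatic cancer) that kept its own Pkn2, so only host cells could lose the gene. Rosa26-CreERT2 acts in all host tissues and not in 1 stromal cell type. Because carcinoma reads carry Pkn2 in both groups, its level in a bulk tumour does not check the genotype.

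Depth ranged from 16294128 counts (WT replicate B) to 31121422 counts (WT replicate E). WT replicate B stood apart from the other libraries. It was the shallowest, and its TMM factor, which rescales a library so that most genes agree, was 0.736 where the other 10 tumours had factors from 0.923 to 1.09. For the 8 genes named above, mean shares and fold changes that rest on it are given with and without it. Epithelial carcinoma markers were present in every tumour, the 8 of them summing to between 0.281% and 0.573% of counts in KO tumours and between 0.229% (WT replicate B) and 0.875% in WT tumours. In bulk tumours, fewer cells of a type and less RNA per cell cannot be told apart.

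The genes belong to several RNA families. Ribosomes contain RNA as well as protein: cytoplasmic ribosomal RNA is cut from a long precursor made by RNA polymerase I in the nucleolus, and mt-Rnr1 and mt-Rnr2 encode the small and large ribosomal RNA of the mitochondrion. Malat1 and Neat1 are long RNAs that stay in the nucleus, Malat1 in nuclear speckles and Neat1 as the scaffold of paraspeckles. Rn7sk, Rmrp and Rpph1 are short RNA polymerase III products. Rn7sk (7SK RNA) holds the elongation kinase P-TEFb inactive together with HEXIM proteins, Rmrp is the RNA of RNase MRP, which cuts the ribosomal precursor, and Rpph1 is the RNA of RNase P, which trims transfer RNA. Most of these RNAs lack the long poly(A) tail of an mRNA. Whether the libraries were made after poly(A) selection or ribosomal RNA depletion is not given in the sources used here.

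The annotation on GRCm38 shows what each row can count. Gm42418 is annotated as a lincRNA with a single exon of 1831 bases at chr17:39846958-39848788 on the forward strand. Its first 1245 bases lie inside the RefSeq 18S ribosomal RNA gene Rn18s-rs5 (chr17:39846354-39848202) and its last 586 bases lie beyond it. The 200 bases around that boundary, at chr17:39848103-39848302, are shown because they carry the end of the 18S sequence, in capitals, followed by the sequence that comes next on the chromosome:
Gm42418: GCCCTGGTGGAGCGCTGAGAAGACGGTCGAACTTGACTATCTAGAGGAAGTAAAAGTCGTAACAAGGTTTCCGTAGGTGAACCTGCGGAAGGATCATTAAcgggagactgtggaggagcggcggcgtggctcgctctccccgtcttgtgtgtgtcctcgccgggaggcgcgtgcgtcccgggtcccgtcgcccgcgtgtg
The mitochondrial genes mt-Rnr1 (chrM:70-1024) and mt-Rnr2 (chrM:1094-2675) lie at the start of the heavy-strand transcript, 955 and 1582 bases long. Malat1 (chr19:5795690-5802672) and Neat1 (chr19:5824708-5845478) are both on the reverse strand, with exons of 6983 and 20771 bases. Their longest runs of A are shown, in capitals with 25 bases on either side, because oligo(dT), where it is used to select or prime RNA, can also pair with an internal run of A:
Malat1: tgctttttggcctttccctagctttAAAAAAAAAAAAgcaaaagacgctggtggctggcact
Neat1: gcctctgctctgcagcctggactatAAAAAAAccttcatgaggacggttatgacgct
mt-Rnr2: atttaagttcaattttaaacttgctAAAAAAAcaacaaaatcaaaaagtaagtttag
Malat1 held a run of 12, and 5.6% of 55450 annotated genes had a transcript with a run at least as long. Its run begins at base 6674 of 6983, near the 3′ end. The longest runs were 7 bases in Neat1 and mt-Rnr2, 6 in Gm42418, 5 in mt-Rnr1, 3 in Rn7sk and Rmrp and 2 in Rpph1, and 27.6% of genes had a run of at least 7.

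Rn7sk (chr9:78175303-78175633, reverse strand, 331 bases) was the only polymerase III RNA of the group with counts. Its first 120 bases (chr9:78175514-78175633) are shown for the motif GATC, in capitals, which HEXIM proteins recognise when it is paired in the folded RNA. All 3 copies of GATC in the RNA fall in this stretch:
Rn7sk: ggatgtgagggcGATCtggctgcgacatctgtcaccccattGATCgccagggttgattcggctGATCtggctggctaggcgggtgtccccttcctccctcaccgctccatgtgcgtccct
Bases 1 to 241 of Rn7sk also occur without a mismatch in the annotated copy Gm24447 on chromosome 15, which had between 0 and 2 counts per tumour. Reads that match both places equally well would not have been counted, since the authors kept uniquely aligned reads, so Rn7sk levels are uncertain in absolute terms.

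Rmrp and Rpph1 had 0 counts in each of the 11 tumours. In CPM, the count of a gene relative to the total of its library, the limit that a count of 0 allows (3 counts) was 0.0964 in the deepest tumour and 0.184 in the shallowest, for either gene. Their sequences are shown with the part they share with another annotated gene on the same strand in capitals. Rmrp (chr4:43492783-43493063) is annotated in 2 rows of 281 and 271 bases, and all 271 bases of the shorter row lie in the longer one:
Rmrp: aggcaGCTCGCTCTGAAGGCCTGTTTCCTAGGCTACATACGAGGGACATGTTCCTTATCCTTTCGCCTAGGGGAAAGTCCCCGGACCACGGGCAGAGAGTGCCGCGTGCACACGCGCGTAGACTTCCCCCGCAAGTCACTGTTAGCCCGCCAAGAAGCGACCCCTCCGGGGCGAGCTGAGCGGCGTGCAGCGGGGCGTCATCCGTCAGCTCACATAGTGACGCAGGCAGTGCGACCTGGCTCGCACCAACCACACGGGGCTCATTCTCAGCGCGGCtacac
Rpph1 (chr14:50807449-50807767, 319 bases, of which bases 1 to 300 at chr14:50807468-50807767 are printed) shares 233 bases, or 73%, with an exon of Ccnb1ip1, a protein-coding gene that was itself at 0 counts in every tumour:
Rpph1: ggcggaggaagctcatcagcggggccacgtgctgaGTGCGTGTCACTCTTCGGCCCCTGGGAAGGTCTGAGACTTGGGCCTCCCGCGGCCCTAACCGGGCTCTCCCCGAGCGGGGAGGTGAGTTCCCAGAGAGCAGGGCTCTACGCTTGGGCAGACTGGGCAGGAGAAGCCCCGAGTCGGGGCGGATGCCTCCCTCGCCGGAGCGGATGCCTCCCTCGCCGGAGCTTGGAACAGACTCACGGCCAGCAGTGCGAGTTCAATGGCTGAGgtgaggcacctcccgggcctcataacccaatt
HTSeq, the counting program the authors used, sets aside a read that fits 2 genes on 1 strand in its default mode, and the mode used here is not given in the sources. The 0 counts of Rmrp and Rpph1 are therefore not a measure of whether these RNAs were present, and neither gene entered a test.

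The other 6 genes together with these made up between 0.425% and 0.860% of all counts in KO tumours (0.595% ± 0.182, SD, n = 6) and between 0.382% and 6.57% in WT tumours (2.26% ± 2.48, SD, n = 5). Without WT replicate B the WT mean was 1.18% ± 0.678 (SD, n = 4). The joint share was 1.39% in WT replicate A, 6.57% in B, 1.98% in C, 0.951% in D and 0.382% in E. Thus 4 WT tumours lay above every KO tumour and 1 lay below all of them.

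**Figure D1:**
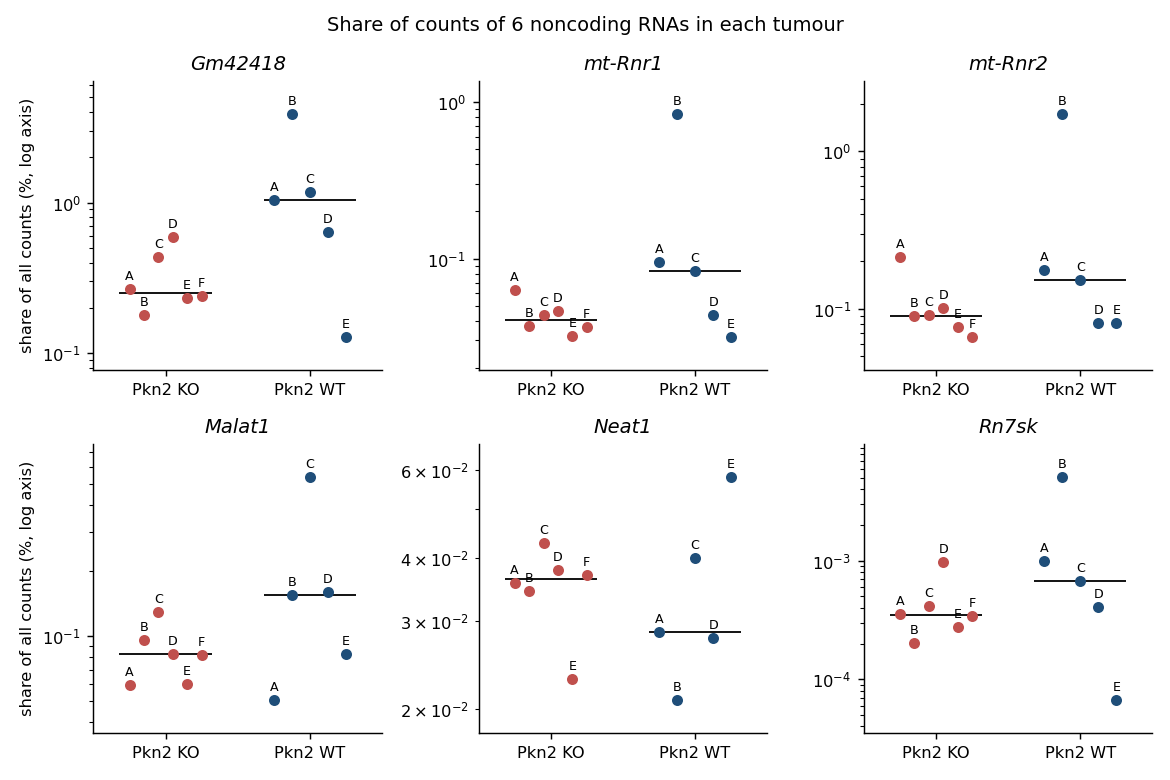
Share of all counts (%, log axis) of the 6 detected RNAs in each tumour, with KO tumours in red, WT tumours in blue, replicate letters above the points and the group median as a line. WT replicate B is the highest point for Gm42418 (3.84%), mt-Rnr1 (0.833%), mt-Rnr2 (1.72%) and Rn7sk, WT replicate C is the highest for Malat1 (0.538%), and WT replicate E is the highest for Neat1 (0.0580%).

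Gm42418 was the most abundant of the 8. It took 0.266% of counts in KO replicate A, 0.180% in B, 0.436% in C, 0.591% in D, 0.234% in E and 0.240% in F. In WT tumours it took 1.04% in replicate A, 3.84% in B, 1.17% in C, 0.640% in D and 0.129% in E. The highest and lowest tumour, both WT, differed 29.8-fold, and the 95% Wilson interval of the highest share ran from 3.83% to 3.85% and that of the lowest from 0.128% to 0.130%. These intervals cover counting error only. WT replicates A to D were above every KO tumour and E was below every KO tumour. The mean share was 0.325% ± 0.157 (SD, n = 6) in KO and 1.36% ± 1.44 (SD, n = 5) in WT tumours, and 0.745% ± 0.468 (SD, n = 4) in WT tumours without replicate B.

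Neighbouring rows at the ribosomal locus did not all follow Gm42418. Gm26917, a lincRNA that ends 616 bases before Gm42418 on the same strand (chr17:39843013-39846341), took 0.0280% of counts at the median of KO tumours, with a highest KO share of 0.0390%. In WT tumours its share was 0.0234% in replicate A, 0.0251% in B, 0.137% in C, 0.0281% in D and 0.0814% in E. It was thus high in WT replicates C and E, where Gm42418 was second highest and lowest. The number of Gm42418 counts for each Gm26917 count was 153 in WT replicate B and 1.58 in WT replicate E, and had a median of 9.76 and a lowest value of 7.35 in KO tumours. CT010467.1, annotated as ribosomal RNA on the opposite strand of Gm42418, had 0.145 to 0.574 counts for every 1000 counts of Gm42418 over the 11 tumours. Another gene, AY036118, also lies opposite Gm42418. Reads that fit both genes may have been set aside, so these counts do not measure all signal on the opposite strand. Gm15564, another row of the list of loci with ribosomal sequence, was also highest in WT replicate B: it had 37 to 133 counts in KO tumours and 276, 969, 316, 199 and 49 counts in WT replicates A to E.

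Both mitochondrial ribosomal RNAs were highest in WT replicate B. The smaller, mt-Rnr1, took 0.0627% of counts in KO replicate A, 0.0372% in B, 0.0437% in C, 0.0463% in D, 0.0318% in E and 0.0368% in F. Its WT shares were 0.0956% in replicate A, 0.833% in B, 0.0833% in C, 0.0433% in D and 0.0316% in E. The larger, mt-Rnr2, took 0.214%, 0.0904%, 0.0909%, 0.101%, 0.0768% and 0.0663% in KO replicates A to F. Its WT shares were 0.177% in replicate A, 1.72% in B, 0.152% in C, 0.0813% in D and 0.0809% in E. For mt-Rnr1, WT replicates A, B and C lay above all KO tumours and WT replicate E below them. For mt-Rnr2 only WT replicate B lay above the KO range, and KO replicate A stood above the other 5 KO tumours. The mean mt-Rnr1 share was 0.0431% ± 0.0109 (SD, n = 6) in KO and 0.217% ± 0.345 (SD, n = 5) in WT tumours, and 0.0635% ± 0.0308 (SD, n = 4) in WT tumours without replicate B. The mean mt-Rnr2 share in WT tumours was 0.442% ± 0.715 (SD, n = 5). Without WT replicate B the mean mt-Rnr2 share was 0.123% ± 0.0490 (SD, n = 4) in WT against 0.107% ± 0.0538 (SD, n = 6) in KO tumours.

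Counts of mt-Rnr2 per count of mt-Rnr1 varied far less than the levels of either. This ratio was between 1.80 and 3.40 in KO tumours, where 3.40 was KO replicate A, and between 1.82 and 2.56 in WT tumours, with 2.06 in WT replicate B. The value of WT replicate B lay within the KO range. As CPM per kilobase of exon, mt-Rnr2 had a median of 573 in KO and 958 in WT tumours, and mt-Rnr1 a median of 423 and 872, each below Gm42418 with 1383 and 5682.

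**Figure D2:**
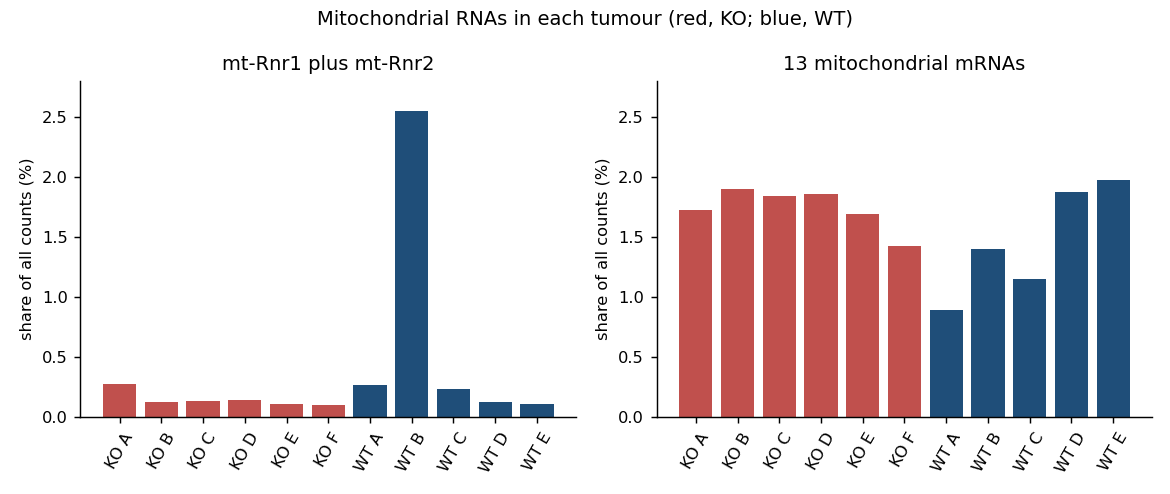
Share of all counts (%) of the 2 mitochondrial ribosomal RNAs together (left) and of the 13 mitochondrial mRNAs together (right) in each tumour, drawn on 1 scale that starts at 0. The ribosomal bar of WT replicate B exceeds every other ribosomal bar, while its mRNA bar, 1.40%, lies below those of all 6 KO tumours. TMM scaling is not applied here.

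The mRNAs of the mitochondrial genome are cut from the same long transcripts and code for subunits of the respiratory chain and ATP synthase. As a summed share of counts, without TMM scaling, they did not share the peak of WT replicate B. Their 13 rows summed to 1.74% ± 0.18 (SD, n = 6) of counts in KO and 1.46% ± 0.46 (SD, n = 5) in WT tumours, a difference that an exact two-sided permutation test over all assignments of tumours to groups did not separate from the spread (p = 0.201, adjusted p = 0.268 over 4 RNA classes). WT replicate B had 182 mitochondrial ribosomal counts for every 100 mitochondrial mRNA counts. The other WT tumours had 30.5 in replicate A, 20.5 in C, 6.64 in D and 5.70 in E, and KO tumours had 6.41 to 7.92 except KO replicate A, with 15.996. The first mRNA after mt-Rnr2, mt-Nd1, a subunit of complex I, was at 3351 CPM in WT replicate B, against 2002 to 3043 in KO and 1750 to 2916 in the other WT tumours. Farther along the same strand mt-Nd5, also of complex I, was at 374 CPM in WT replicate A, 336 in B and 645 in C, below the KO range of 1298 to 1857, while WT replicate D was within it (1479) and E above it (1893). TMM scaling raises values in WT replicate B. With it mt-Co1, which held 43.1% of the mitochondrial mRNA counts, was highest in WT replicate B (8779 CPM, at most 7744 in KO). By the same scaling mt-Nd5 was at 457 CPM in WT replicate B, below the KO range of 1258 to 1767.

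The light strand of the mitochondrial genome carries 1 mRNA, mt-Nd6, and a different tumour led it. WT replicate C had 311 CPM of mt-Nd6, while KO tumours had 55.5 to 75.2 and the other WT tumours 23.6 to 58.7. Of 12 mitochondrial mRNAs tested, 0 passed an adjusted p of 0.05 (edgeR quasi-likelihood test), 3 had a lower mean in KO and 1 a higher mean at an unadjusted p under 0.05, and their median log2 fold change was -0.06. Over all genes tested, 15.5% had a lower and 8.57% a higher mean at that level, and the median was -0.03. The smallest p was that of mt-Co2, a subunit of complex IV (log2 fold change -1.01, SE 0.25, adjusted p = 0.0847), a row with few counts (11.2 to 28.9 CPM). DESeq2 passed 2 of the 13 mRNAs, mt-Co2 and mt-Co3, both lower in KO, where it passed 4.81% of all genes as lower.

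Malat1 followed neither ribosomal group. It took 0.0596% of counts in KO replicate A, 0.0959% in B, 0.129% in C, 0.0824% in D, 0.0600% in E and 0.0821% in F. In WT tumours it took 0.0510% in replicate A, 0.154% in B, 0.538% in C, 0.158% in D and 0.0824% in E. WT replicates B, C and D lay above all KO tumours and WT replicate A below all of them, although A was above all KO tumours for Gm42418. In edgeR the log2 fold change, KO minus WT, was -1.39 (SE 0.51, adjusted p = 0.132). Without WT replicate C it was -0.59 (adjusted p = 0.338), and over all alternatives the adjusted p ran from 0.0545 to 0.755.

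Neat1 was the steadiest of the 6. Its shares were 0.0356%, 0.0343%, 0.0428%, 0.0378%, 0.0230% and 0.0369% in KO replicates A to F. The WT shares were 0.0284% in replicate A, 0.0209% in B, 0.0400% in C, 0.0277% in D and 0.0580% in E. The groups overlapped, the highest and the lowest share over all tumours being WT replicates E and B. The log2 fold change was -0.11 (SE 0.22, adjusted p = 0.785), with a 95% interval from -0.55 to 0.33, and its sign depended on the scaling and on WT replicate E. Malat1 counts per Neat1 count were between 1.68 and 3.02 in KO tumours, and in WT tumours 1.79 in replicate A, 7.36 in B, 13.5 in C, 5.72 in D and 1.42 in E.

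Rn7sk, the only short member with counts, was counted rarely but moved with Gm42418. It had 100 counts in KO replicate A, 55 in B, 115 in C, 224 in D, 64 in E and 83 in F. In WT tumours it had 250 counts in replicate A, 828 in B, 148 in C, 96 in D and 21 in E. As a share of counts, the lowest tumour (WT replicate E, 6.75e-05%, 95% Wilson interval 4.41e-05% to 0.000103%) and the highest (WT replicate B, 0.00508%, interval 0.00475% to 0.00544%) differed 75.3-fold, more than for any other member. KO replicate D was the highest KO tumour for Rn7sk as it was for Gm42418. The log2 fold change was -2.15 (SE 0.86, adjusted p = 0.157). Without WT replicate B it was -0.46 (adjusted p = 0.742), and without WT replicate E it was -2.47 (adjusted p = 0.0468), so that the call turned on single WT tumours. The ribosomal RNA share, log2 of the joint share of Gm42418, mt-Rnr1 and mt-Rnr2, was also used as a covariate. With it the sign turned (1.06, adjusted p = 0.235). Because those genes were picked for their spread and Gm42418 moved with Rn7sk, this setting draws no conclusion on Rn7sk. Over all alternatives the adjusted p ran from 0.0468 to 0.742.

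Of the 3 members that were tested and not picked for their spread, 0 passed an adjusted p of 0.05, where 0.0181% of the 16536 genes tested passed. DESeq2, an alternative test, passed 0 of these 3 as well (adjusted p = 0.0553 for Malat1, 0.116 for Rn7sk and 0.844 for Neat1), where it passed 3.19% of genes as higher and 4.81% as lower in KO. A lower mean in KO at an unadjusted p under 0.05 was found for 2 of these 3 (Malat1 and Rn7sk), against 15.5% of all genes tested. None of the 6 detected members had KO and WT levels without overlap, where 2.01% of genes were lower and 1.59% higher in every KO tumour than in any WT tumour. As a description only, the fitted log2 fold changes of the 3 genes picked for their spread were -2.43 for Gm42418 (SE 0.71), -2.76 for mt-Rnr1 (SE 0.82) and -2.48 for mt-Rnr2 (SE 0.85). Without WT replicate B these were -1.32, -0.67 and -0.30.

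**Figure D3:**
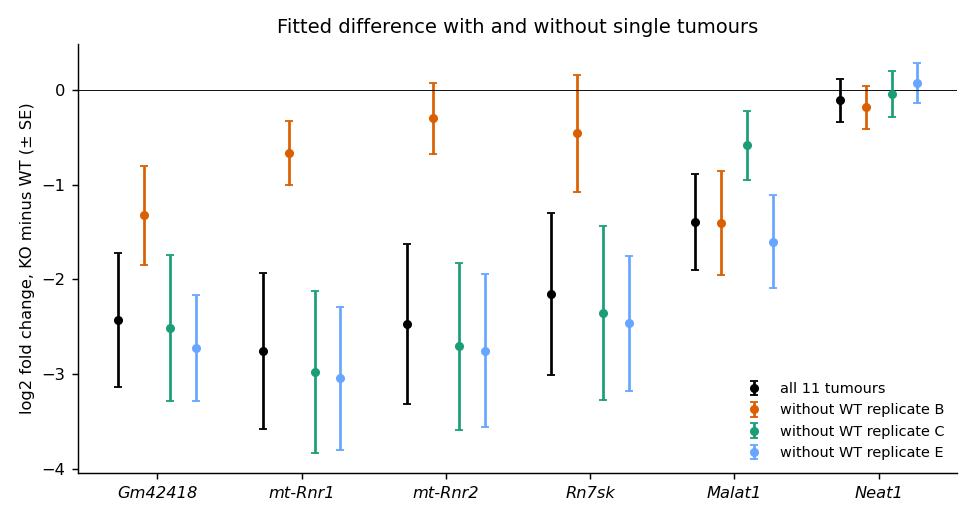
Fitted log2 fold change (KO minus WT, ± SE from edgeR) of the 6 detected RNAs with all 11 tumours and without WT replicate B, C or E. Leaving out WT replicate B brings Rn7sk from -2.15 to -0.46 and mt-Rnr2 from -2.48 to -0.30, leaving out WT replicate C brings Malat1 from -1.39 to -0.59, and Neat1 stays near 0.

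Which RNAs moved together was described by correlations of log2 CPM over the 11 tumours, with TMM scaling. These points share library depth and the spread of WT replicate B, so no p is given. Gm42418 and Rn7sk had Pearson's r of 0.947 and Spearman's rho of 0.936, and r was 0.872 after the 2 tumours farthest from the Gm42418 median (WT replicates B and E) were left out and 0.933 within the 6 KO tumours. The mitochondrial pair mt-Rnr1 and mt-Rnr2 had r of 0.983 and rho of 0.891, with r of 0.860 without WT replicates A and B and 0.918 within KO tumours. Gm42418 and mt-Rnr1 had r of 0.892 and rho of 0.9, with r of 0.792 without WT replicates B and E and 0.346 within KO tumours. Gm42418 and mt-Rnr2 had r of 0.818 and rho of 0.691, which came to 0.505 without WT replicates B and E and to 0.0976 within KO tumours, so this relation rests on those WT tumours. Rn7sk and mt-Rnr1 had r of 0.886 and rho of 0.918, with r of 0.641 without WT replicates A and B and 0.364 within KO tumours. Rn7sk and mt-Rnr2 had r of 0.832 and rho of 0.736, with r of 0.661 without KO replicate A and WT replicate B and 0.123 within KO tumours.

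The nuclear long RNAs stood outside these pairs. Malat1 had r of 0.568 with Gm42418 (rho 0.464), 0.342 with mt-Rnr2 (rho 0.155) and 0.379 with Rn7sk (rho 0.273). For the last, r was -0.109 without WT replicates B and C. Malat1 and Neat1, which lie next to each other on chromosome 19, had r of 0.208 (rho 0.182). Neat1 had r between -0.347 and -0.168 with Gm42418, mt-Rnr1, mt-Rnr2 and Rn7sk. The sign of these turned within KO tumours, where r was between 0.241 and 0.567. Without WT replicate B, r was -0.114 with Gm42418, 0.0816 with mt-Rnr1, 0.112 with mt-Rnr2 and -0.271 with Rn7sk. Gm26917 had r of 0.137 with Gm42418 and 0.713 with Malat1, the latter 0.132 without WT replicates B and C.

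Among 16530 other genes, those with the pattern most like Gm42418 were Gm23935 (r = 0.979, rho 0.991), Gm24270 (r = 0.974, rho 0.982) and Lars2 (r = 0.973, rho 0.991). Without WT replicates B and E, r was 0.948, 0.934 and 0.943. The first 2 are annotated as miRNA genes of 57 bases on chromosomes 16 and 9. Their sequences are identical, and the one at chr16:11144125-11144181 is shown because its counts were the ones most like those of Gm42418:
Gm23935: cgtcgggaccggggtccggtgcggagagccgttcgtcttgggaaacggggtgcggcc
Gm23935 had 2941 to 7610 counts in KO tumours and 17752, 76338, 35964, 9555 and 2338 counts in WT replicates A to E, 0.469% of all counts in WT replicate B. Its longest exact match to Gm42418 was 8 bases. Lars2 encodes the leucyl-tRNA synthetase of mitochondria. It had 3643 to 9769 counts in KO tumours and 26098, 100999, 32375, 12978 and 3735 in WT replicates A to E, 0.620% of counts in WT replicate B. A transcript of Lars2 shares an exact run of 52 bases with Gm15564, and its longest match to Gm42418 was 12 bases. Gm42418 holds only part of the ribosomal precursor. Short matches to it therefore do not show whether Gm23935 or Lars2 carries sequence from other parts, which was not tested. Because the 2 miRNA rows are identical in sequence, reads that fit both equally well would not have been counted, and each count is uncertain.

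**Figure D4:**
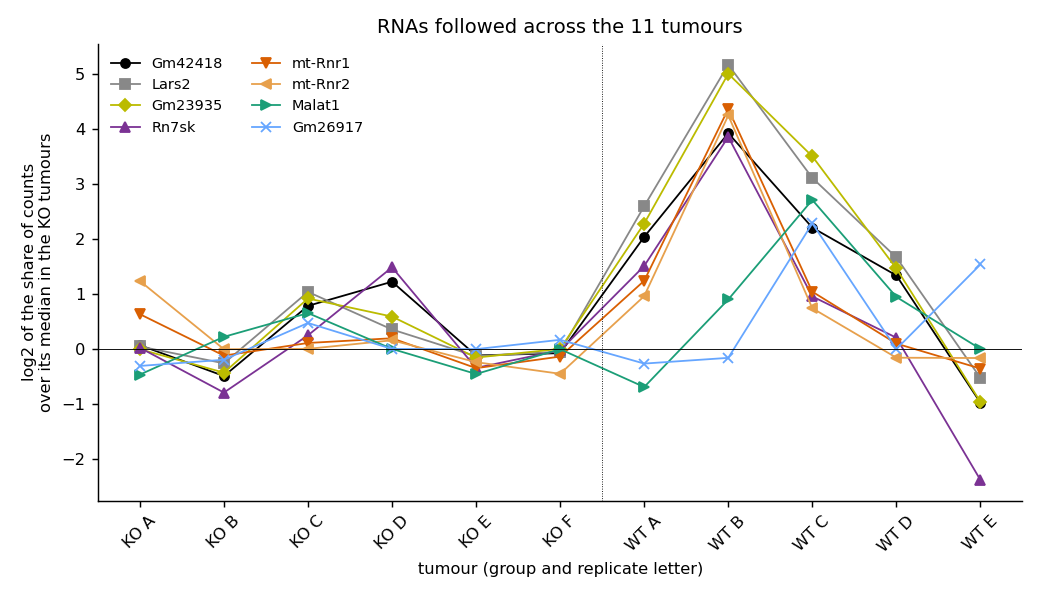
log2 of the share of counts of 8 RNAs over its median in the KO tumours, for each tumour, with a dotted line between KO and WT. Gm42418, Lars2, Gm23935 and Rn7sk are above the KO median in WT replicates A to D, highest in B, and are below the KO median in E, while Malat1 and Gm26917 peak in C.

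Closest to mt-Rnr1 were Rpl15 (r = 0.987), Polr2j (r = 0.986) and Rpl28 (r = 0.985). Without WT replicates A and B these r were 0.929, 0.907 and 0.868. Closest to mt-Rnr2 were Arpc1a (r = 0.979), Polr2j (r = 0.977) and Timm21 (r = 0.966). Without KO replicate A and WT replicate B these were 0.865, 0.974 and 0.926. Rpl15 and Rpl28 code for proteins of the cytoplasmic ribosome and Polr2j for a small subunit of RNA polymerase II. With WT replicate B included, as many as 694 genes had r over 0.9 with mt-Rnr1, 298 with mt-Rnr2 and 292 with Gm42418. There were 77 such genes for Rn7sk, but 5 for Malat1 and 1 for Neat1. That last gene was H19, the imprinted long RNA of chromosome 7 (r = 0.902, rho 0.891), followed by Sez6l (r = 0.878) and Gspt2 (r = 0.878). Nearest to Malat1 were Rnf168 (r = 0.943), Nras (r = 0.939) and Gtf3c2 (r = 0.922). Without WT replicates B and C these r were 0.686, 0.766 and 0.507. For Rn7sk the nearest were Nthl1 (r = 0.965), H3f3a (r = 0.957) and BC004004 (r = 0.949). Without WT replicates B and E these came to 0.858, 0.754 and 0.763.

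A trend with transcript length was negative in the 3 tumours with the highest joint shares of ribosomal RNAs. Over 16527 tested genes, the deviation of a tumour from the mean of all tumours was ranked against exon length. Spearman's rho across genes, which are not independent replicates, was -0.496 in WT replicate A, -0.446 in B and -0.171 in C, and it was positive in the other 8 tumours (0.100 to 0.327 in KO, 0.269 in WT replicate D and 0.372 in E). The same 3 tumours had the 3 highest joint shares of Gm42418, mt-Rnr1 and mt-Rnr2 (1.31%, 6.39% and 1.40%). In the other 8 the joint share was 0.241% to 0.765%, and rho did not follow its order. KO replicate A (0.542%) had rho of 0.100, and KO replicate D (0.739%) had 0.310. Genes over 4 kb minus genes under 1 kb came to -1.22 on the log2 scale in WT replicate B, to -0.73 in A and to -0.02 in C, relative to the mean of all tumours. On this measure WT replicate C lay between KO replicate A (-0.05) and the other KO tumours (0.04 to 0.32), and WT replicates D and E were at 0.47 and 0.50. The part of this trend in the differences given above and below was not tested.

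Classes of RNA related to these genes were compared as shares of counts, with exact two-sided permutation tests over tumours, where 0.00216 is the smallest p that can occur, and with adjustment over the 4 classes. Small nuclear and nucleolar RNAs, which guide splicing and the modification of ribosomal RNA, took 0.00427% ± 0.00055 (SD, n = 6) of counts in KO and 0.00726% ± 0.00202 (SD, n = 5) in WT tumours, and were lower in KO (exact permutation p = 0.00216, adjusted p = 0.00866). The groups did not overlap, KO tumours lying between 0.00354% and 0.00496% and WT tumours between 0.00523% and 0.0104%. The class rested on 856 to 2121 counts per tumour. Only 22 of its 2943 rows were tested in edgeR. The best counted, Gm22009, had a log2 fold change of -0.12 (SE 0.39, adjusted p = 0.872). Also among the best counted, Gm23119 was at -0.10, Snora73b at -1.56 and Scarna2 at -1.67. The best counted that differed at an unadjusted p under 0.05 was Snord104, a box C/D RNA within a host gene, named after its values were seen. It had 3.38 to 4.33 CPM in KO and 4.66 to 22.1 in WT tumours (log2 fold change -1.70, SE 0.44, adjusted p = 0.0904).

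Other long noncoding RNAs, all rows of those annotation classes without the 8 genes and the ribosomal loci, took 0.699% ± 0.027 (SD, n = 6) in KO and 0.794% ± 0.052 (SD, n = 5) in WT tumours (exact permutation p = 0.00649, adjusted p = 0.0130). KO tumours lay between 0.669% and 0.744% and WT tumours between 0.723% and 0.861%. This class holds some rows that bear the names of protein-coding genes and are annotated as processed transcripts, such as Cct6a. Without all processed transcripts the difference was -0.0454 percentage points and no longer passed (exact permutation p = 0.0519, adjusted p = 0.104). Histone mRNAs, most of which lack poly(A) tails in dividing cells, took 0.0159% ± 0.0027 (SD, n = 6) in KO and 0.0176% ± 0.0039 (SD, n = 5) in WT tumours (exact permutation p = 0.416, adjusted p = 0.416), and the groups overlapped. Hist1h1c held 40.6% and Hist1h2bc 28.9% of the counts of this class. Whether the RNAs counted here carried tails was not tested.

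**Figure D5:**
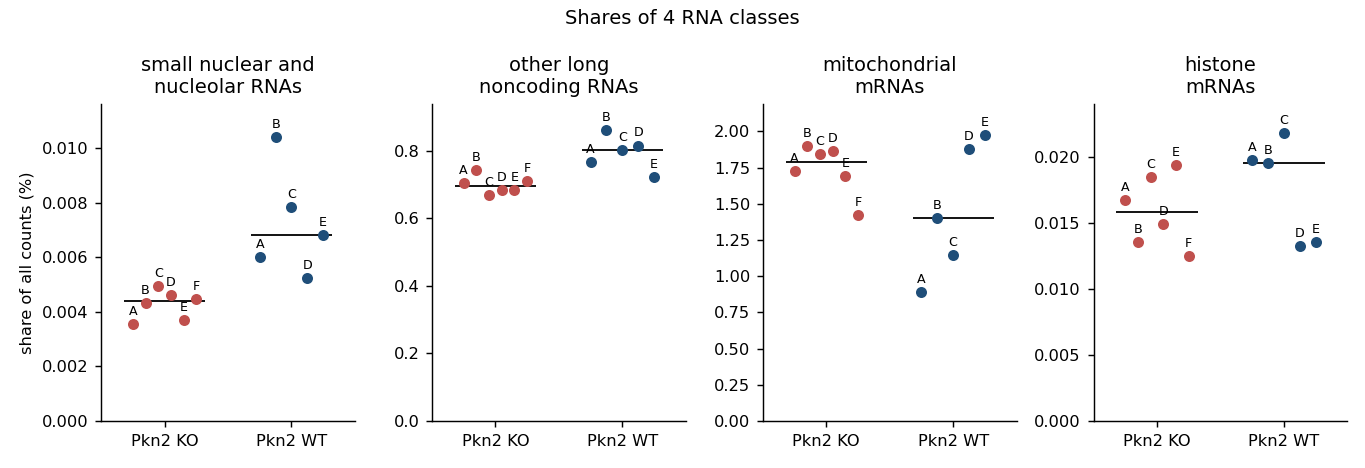
Share of all counts (%) of 4 RNA classes in each tumour on axes that start at 0, with KO in red, WT in blue, replicate letters and the group median as a line. Small nuclear and nucleolar RNAs separate the groups, with the highest KO tumour at 0.00496% and the lowest WT tumour at 0.00523%, and the other 3 classes overlap.

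Proteins that make, process or bind these RNAs were counted by list, each against a median log2 fold change of -0.03 and a share of 15.5% lower and 8.57% higher at an unadjusted p under 0.05 over all genes tested. No gene of these lists passed an adjusted p of 0.05 in edgeR. DESeq2 passed some of them, each lower in KO: 3 RNase P and RNase MRP proteins, 2 of the RNA polymerase I machinery, 1 of the RNA polymerase III machinery, 2 of mitochondrial ribosomal RNA maturation, 6 nucleolar assembly factors, 4 other long noncoding RNAs, 2 other loci with ribosomal sequence and 0 of the remaining lists. Over all genes, DESeq2 passed 4.81% as lower and 3.19% as higher in KO. Groups without overlap and lower in KO were found for 2.01% of the genes tested in edgeR, and a lower mean in KO, whatever the p, for 52.0%. Of 11 RNase P and RNase MRP proteins, the partners of Rpph1 and Rmrp, 10 had a lower mean in KO, 7 of them at an unadjusted p under 0.05 (median -0.66). Rpp30, a subunit of both enzymes, had 21.9 ± 3.0 (SD, n = 6) CPM with TMM scaling in KO and 38.0 ± 10.7 (SD, n = 5) in WT tumours without overlap (log2 fold change -0.79, SE 0.19, adjusted p = 0.0847). Among 15 genes of the RNA polymerase I machinery, which makes the ribosomal precursor, 6 had a lower and 1 a higher mean at an unadjusted p under 0.05 (median -0.30). Taf1d, a subunit of its initiation factor, led with -1.04 (SE 0.19, adjusted p = 0.0663) and groups that did not overlap.

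In the list of 22 nucleolar ribosome assembly factors, 8 had a lower and 0 a higher mean at an unadjusted p under 0.05 (median -0.30). Nop56, a core protein of box C/D nucleolar particles, had 114.6 ± 6.06 (SD, n = 6) CPM in KO and 179.9 ± 22.2 (SD, n = 5) in WT tumours, again without overlap (-0.65, SE 0.13, adjusted p = 0.0663). Npm1, the abundant nucleolar chaperone, was at -0.65 (SE 0.18, adjusted p = 0.0940). Mitochondrial transcription and ribosomal RNA maturation had 6 of 22 with a lower and 0 with a higher mean at that level (median -0.29), led by Mterf3, a regulator of mitochondrial ribosome assembly (-0.51, SE 0.14, adjusted p = 0.0921). The RNA polymerase III machinery had 6 of 21 with a lower and 1 with a higher mean (median -0.23), led by Snapc2, a factor for small nuclear RNA promoters (-0.73, SE 0.22, adjusted p = 0.103).

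The lists tied to the nuclear RNAs were counted in the same way, where 52.0% of all genes tested had a lower mean in KO. Of 7 proteins of the 7SK particle and P-TEFb, 5 had a lower mean in KO, 1 of them at an unadjusted p under 0.05 (median -0.13). That gene was Cdk9, the kinase itself (-0.46, SE 0.17, adjusted p = 0.144). Hexim1, the inhibitor, was at 0.27 (SE 0.16, adjusted p = 0.304). Of 12 paraspeckle proteins, the partners of Neat1, 8 had a lower and 4 a higher mean, and at an unadjusted p under 0.05 these were 1 and 2 (median -0.03). Nudt21, an RNA cleavage factor, was at -0.81 (SE 0.27, adjusted p = 0.113) and Nono, a core paraspeckle protein, at 0.36 (SE 0.14, adjusted p = 0.160). Of 11 chromosome 19 neighbours of Malat1 and Neat1, 1 had a lower mean at that level (median -0.05). Of 17 other nuclear or long noncoding RNAs, 8 had a lower and 1 a higher mean at that level (median -0.55), among them Snhg1, a host of nucleolar RNAs, at -1.25 (SE 0.27, adjusted p = 0.0786). All 3 tested rows of other loci with ribosomal sequence (Gm15564, CT010467.1 and Gm26917) had a lower mean at that level (median -2.30), with adjusted p of 0.0796, 0.0997 and 0.132. Their mean share in WT over that in KO was 8.15, 3.88 and 2.03. Without WT replicate B it was 3.81, 1.90 and 2.33. These loci hold ribosomal sequence as Gm42418 does, a gene picked for its spread, so their counts in edgeR and DESeq2 are a description only. Other polymerase III or small structured RNAs, 14 rows with 7 of them at 0 in all tumours, had no row that passed the filter on low counts.

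Marker genes of other cell types were counted by list as well, against the same background. All 6 B cell and plasma cell markers had a higher mean in KO at an unadjusted p under 0.05 (median 2.27, summed share 0.00654% to 0.0316% in KO and 0.00193% to 0.0104% in WT), as had 4 of 6 neutrophil markers (median 1.495, 0.0277% to 0.228% in KO and 0.0169% to 0.0740% in WT) and 2 of 7 macrophage markers (median 0.28). Of 8 epithelial carcinoma markers 3 had a lower mean at that level (median -0.62). At that level there were 0 of 8 fibroblast markers (median 0.40), 0 of 6 endothelial, 0 of 6 T cell and 0 of 1 tested islet marker in either direction, 2 of 6 red blood cell markers with a higher mean and 1 of 3 tested acinar markers with a lower mean. Acinar markers, from pancreas around the tumour, summed to 0.189% of counts in WT replicate E, the tumour with the most Neat1 and the least Gm42418, and to at most 0.0660% elsewhere. None of these marker genes passed an adjusted p of 0.05 in edgeR. Of the 66 marker genes, DESeq2 passed 10 as higher in KO. These were 5 of B and plasma cells, 2 of neutrophils, 2 of red blood cells and Csf1r of macrophages. It passed 1 as lower, the acinar gene Cela1. Over all genes, DESeq2 passed 3.19% as higher and 4.81% as lower in KO. The part of these cell types in the levels of the 8 genes was not tested.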

How the data were processed

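Bulk RNA from 11 tumours was measured as counts. Per the labels and the study's methods, the authors lysed tumour pieces kept in RNAlater, made strand-specific libraries (NEB Next Ultra II Directional), sequenced them on a NovaSeq instrument as paired-end reads of 151 bases (bcl2fastq version 2.19), trimmed them with Trimmomatic, aligned them with HISAT2 (version 2.1.0) to GRCm38 and counted uniquely aligned exonic reads of mapping quality above 10 with HTSeq (version 0.11.2). They deposited raw counts per Ensembl gene, used here, and a table of normalised values, not used here. Unique alignment removes reads that fit several places, which lowers repeated RNAs. Symbols, exons and sequences came from GENCODE M21 and RefSeq on GRCm38, and 54165 of 54232 identifiers matched.

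Shares are percent of all counts in a tumour. KO and WT tumours, grouped by the sample titles, were compared with edgeR (version 4.0.16, R version 4.3.3; filterByExpr, TMM, quasi-likelihood test, no covariates, Benjamini-Hochberg adjustment over 16536 genes); the pipeline was tested on simulated data. Log2 CPM used a prior count of 2. Fold change SE is the absolute log2 fold change over the square root of F. DESeq2 (version 1.42.0), other scalings, filters and omissions were alternatives. Nothing in the sources names a batch. For each member the 3 genes with the highest r were named, and in each list the 3 with the smallest p or fewer. Members and lists were chosen with earlier results of these data known.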

Additional observations from a re-analysis of the deposited data

Results flagged for a closer look

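Single tumours stood apart within their group in 3 of 14 groups of shares examined (Malat1, Neat1, Rn7sk and 4 RNA classes in each genotype). Gm42418, mt-Rnr1 and mt-Rnr2, picked for their spread, were left out of this search. In these 3 groups the gap between the extreme tumour and its nearest neighbour was more than Dixon's 95% value allows, which chance gives in about 1 of 20 groups. WT replicate B had 0.00508% of counts in Rn7sk (next WT tumour 0.00100%), and WT replicate C had 0.538% in Malat1 (next 0.158%). In the KO group, replicate D had 0.000983% in Rn7sk (next 0.000417%). The 4 RNA classes and Neat1 gave no such tumour.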

How the results depend on the processing

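The count of genes that passed in edgeR, 3 higher and 0 lower in KO (3972 at an unadjusted p under 0.05), depended on the processing: it was 593 and 896 with DESeq2, 39 and 6 with no filter on low counts, 13 and 1 with plain library totals (chosen after seeing the data; the median over all genes moved from -0.03 to 0.11) and 8 and 1 with the replicate block. It was 0 and 0 with at least 10 counts in every tumour (3514 at an unadjusted p under 0.05) or with the ribosomal RNA share as covariate (1470). That share is made of Gm42418, mt-Rnr1 and mt-Rnr2, the genes picked for their spread. Without single tumours it ran from 0 to 608 higher and 0 to 1248 lower, the highest without WT replicate E, followed by 203 and 651 without WT replicate D. The cause was not tested.

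Neat1 changed sign with plain library totals (0.0023, adjusted p = 0.996) and without WT replicate E (0.073, adjusted p = 0.835), and Rn7sk with the ribosomal RNA share as covariate (1.06, adjusted p = 0.235). Without single tumours, log2 fold changes ran from -2.73 to -1.32 for Gm42418, -3.05 to -0.67 for mt-Rnr1, -2.82 to -0.30 for mt-Rnr2, -1.63 to -0.59 for Malat1, -0.21 to 0.073 for Neat1 and -2.56 to -0.46 for Rn7sk. Letters A to E name different animals, and deviations of tumours with the same letter correlated at -0.135 to 0.118. No pairs with different letters were set beside these, so whether tumours of 1 letter shared a processing step was not tested. With the replicate block Gm42418 was at -1.45, mt-Rnr1 at -1.09, mt-Rnr2 at -0.78, Malat1 at -0.93, Neat1 at -0.09 and Rn7sk at -0.70. For the classes, paired differences over 5 letters with an exact sign-flip permutation, whose smallest p is 0.0625, left small nuclear and nucleolar RNAs at -0.00303 percentage points and other long noncoding RNAs at -0.0967 (adjusted p = 0.125 for both). Without processed transcripts the long noncoding difference was -0.0454. Both classes passed in all 11 omissions of a tumour, at -0.00350 to -0.00220 and -0.112 to -0.0779, and under the other denominator and the log2 scale. Depth limits Rn7sk, with 21 to 828 counts per tumour.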
